A study of Mus musculus with 48 samples.

Results

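The RBM genes encode RNA-binding proteins that were named for their RNA-binding motif, and 46 of the 24453 entries in the exon table belong to the family by symbol, of which 43 also have an intron value. Members were taken as every gene whose symbol starts with Rbm and a number, with Rbmx or with Rbms and a number. Rbm3 was not counted. The rule uses symbols and no measured value, but it was set with earlier results of these data known. The 46 include the noncoding entries Rbm3os, which overlaps Rbm3 on the other strand, and Rbm46os, which overlaps no other entry of the exon table. RNA had been sequenced from livers of Nono-/- mice and of wild-type mice, all of the C57BL/6 strain and 14 weeks old, on a cycle of 12 h light and 12 h dark, with food given only in the dark over the last week. The sources used here do not say how the Nono allele was made. Livers were taken at 12 time points 2 h apart, named by zeitgeber time (ZT, counted in hours from lights on). Each sample was a pool of 2 mice and was sequenced both as total RNA and as RNA of isolated nuclei. The groups were therefore Nono-/- total RNA, Nono-/- nuclear RNA, wild-type total RNA and wild-type nuclear RNA, with 12 libraries each and no replicate at a time point.

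NONO is a nuclear protein of the DBHS family that binds RNA and DNA, takes part in transcription and RNA processing and is a component of paraspeckles, nuclear bodies built on a long noncoding RNA. RBM proteins work at many steps of the life of an RNA. Several are parts or regulators of the spliceosome. Others recruit the complex that writes N6-methyladenosine (m6A) on RNA, or guide nuclear transcripts to the exosome for decay. Some make ribosomes in the nucleolus, or bind messages and set their stability, translation or editing. RBM14 is itself a paraspeckle protein, and RBM4 has been linked in mouse cells to the translation of the clock gene Per1.

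Values were FPKM (fragments per kilobase of gene, scaled to library size) over exons or over introns, and levels below are FPKM as deposited. Total RNA exons reflect mostly mature message, and nuclear introns mostly unspliced transcript. Differences between genotypes were tested with limma on log2(FPKM + pseudocount) after each library was scaled to the median gene, and p-values were adjusted over all genes tested, with a threshold of 0.05. A log2 difference is Nono-/- minus wild type, relative to the median gene, and averaged over the day. Without scaling the median gene itself lay at -0.20 in nuclear exons and -0.21 in total RNA introns on the log2 scale, and within 0.02 of 0 in the other exon and intron readouts, so nuclear exon and total RNA intron FPKM as deposited read lower in Nono-/- livers than the scaled differences do. Counts of livers below or above all wild-type livers also use FPKM as deposited, and their share over all genes was not worked out. Members without a call reached such counts too. In total RNA introns Rbm4 and Rbm27 had 8 Nono-/- livers below all wild-type livers and Rbm26 had 7. In nuclear exons Rbm15, Rbm22, Rbm33 and Rbm47 had 6 each. Rbm42, which was under the filter in nuclear exons and not tested there, had 7.

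Nono exons reached at most 0.0910 FPKM in Nono-/- total RNA and were listed at 0 in 8 of 12 libraries, against 8.74 to 10.7 FPKM in wild-type total RNA, and the ranges did not overlap in nuclear RNA either. Depth worked out from the FPKM steps in M (mega) reads was 9.91 to 22.5 for Nono-/- total RNA libraries, against 11.8 to 23.9 for wild-type ones, and 12.7 to 28.9 for Nono-/- nuclear RNA libraries, against 14.7 to 21.7 for wild-type ones. Hepatocyte markers were detected in every group, at summed levels of 32475 to 48533 FPKM in Nono-/- total RNA and 27778 to 45717 FPKM in wild-type total RNA. Introns took 18.5% ± 2.41 of the reads of Nono-/- total RNA and 22.1% ± 1.72 of those of wild-type total RNA (SD, n = 12 each). In nuclear RNA the intron share was 74.6% ± 1.16 in Nono-/- livers and 73.2% ± 2.14 in wild-type livers (SD, n = 12 each). Of 10 Kupffer cell markers 5 rose and 0 fell in total RNA exons, with summed levels of 106 to 303 FPKM (median 192) in Nono-/- livers and 91.6 to 227 FPKM (median 149) in wild-type livers. Of 9 Kupffer markers 4 rose in nuclear exons and 6 in total RNA introns, and of 10 markers 4 rose in nuclear introns. In total RNA exons 0 of 6 hepatocyte, 0 of 9 endothelial, 1 of 8 stellate, 0 of 2 cholangiocyte and 0 of 1 lymphocyte markers tested rose, and 0 fell. In nuclear exons 1 of 6 hepatocyte markers fell, 2 of 9 endothelial markers rose and 1 fell, 1 of 7 stellate markers rose and 2 fell, 0 of 1 cholangiocyte markers moved and 1 of 1 lymphocyte markers rose. In total RNA introns 3 of 8 endothelial markers fell and 1 of 5 stellate markers rose, while 0 of 6 hepatocyte, 0 of 1 cholangiocyte and 0 of 1 lymphocyte markers were called. In nuclear introns 1 of 6 hepatocyte markers fell, 1 of 9 endothelial markers rose and 2 fell, and 0 of 7 stellate, 0 of 2 cholangiocyte and 0 of 3 lymphocyte markers were called. In bulk tissue, fewer cells of a type and less RNA per cell cannot be told apart, and the part of these markers in the RBM results was not tested. The intron share was fitted as a covariate: of the 38 calls on RBM members described below, 4 then stayed past the threshold (Rbm10 and Rbmx in nuclear exons, Rbm38 and Rbmx in nuclear introns), 32 were lost and 2 changed sign.

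Some members cannot be separated cleanly from their neighbours or copies. Rbm4b, Rbm4 and Rbm14 lie side by side on chromosome 19, and the read-through entry Gm21992 spans Rbm4 and Rbm14. Cut into stretches of 50 bases, the GENCODE transcripts of Rbm4 shared 57.5% of their stretches with Gm21992, those of Rbm14 15.4% with Gm21992, and those of Rbm42 73.6% with Gm21982. Rbm12b1 shared 59.7% of its stretches with Rbm12b2, which lies next to it on chromosome 4, and Rbm12b2 55.1% with Rbm12b1. For Rbm10 31.4% of stretches were shared with Gm12799, for Rbmxl1 74.9% with Gm7324 and for Rbm12 32.1% with Gm28036. The sources used here do not say how the authors' counting split reads between such entries, so the exon values of these genes are uncertain. Rbmx also overlaps Snord61, Rbm26 overlaps Gm17066 and Rbm12 overlaps Cpne1, each on the same strand.

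Promoter sequences are shown for the 3 neighbours on chromosome 19, whose nuclear intron signal rose in all 3 cases (below), and for Rbm15b, which fell in nuclear exons. They come from RefSeq (GRCm38.p6), run 5′ to 3′ on the gene's strand from 250 bases before to 50 bases after the start, and were found for 39 of the 46 members. The RefSeq start of Rbm15b lies 75 bases from the start of its exon entry, and that of the other 3 lies 0 bases from it. Capitals mark CCAAT boxes (CCAAT or, on the other strand, ATTGG) in the first 3 and E-boxes (CACGTG, which reads the same on both strands) in Rbm15b. Rbm4 is shown at chr19:4793960-4794259 on the minus strand, Rbm4b at chr19:4756275-4756574 on the plus strand, Rbm14 at chr19:4811585-4811884 on the minus strand and Rbm15b at chr9:106887026-106887325 on the minus strand.
Rbm4: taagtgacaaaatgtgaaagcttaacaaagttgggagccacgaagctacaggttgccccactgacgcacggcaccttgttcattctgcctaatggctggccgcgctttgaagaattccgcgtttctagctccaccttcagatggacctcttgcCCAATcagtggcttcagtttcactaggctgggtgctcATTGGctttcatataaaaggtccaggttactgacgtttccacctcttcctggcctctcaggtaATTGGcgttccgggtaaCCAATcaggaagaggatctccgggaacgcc
Rbm4b: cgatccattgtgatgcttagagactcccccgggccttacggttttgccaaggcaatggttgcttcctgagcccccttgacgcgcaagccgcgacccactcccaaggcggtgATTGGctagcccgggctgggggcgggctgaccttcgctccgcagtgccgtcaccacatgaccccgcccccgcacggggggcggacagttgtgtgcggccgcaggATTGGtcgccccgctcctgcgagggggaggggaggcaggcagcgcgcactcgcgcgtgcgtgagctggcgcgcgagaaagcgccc
Rbm14: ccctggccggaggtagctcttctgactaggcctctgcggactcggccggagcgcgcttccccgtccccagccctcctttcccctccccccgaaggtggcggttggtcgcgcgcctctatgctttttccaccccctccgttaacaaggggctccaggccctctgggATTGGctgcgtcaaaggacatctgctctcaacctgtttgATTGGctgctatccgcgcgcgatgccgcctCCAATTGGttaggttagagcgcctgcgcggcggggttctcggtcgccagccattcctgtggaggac
Rbm15b: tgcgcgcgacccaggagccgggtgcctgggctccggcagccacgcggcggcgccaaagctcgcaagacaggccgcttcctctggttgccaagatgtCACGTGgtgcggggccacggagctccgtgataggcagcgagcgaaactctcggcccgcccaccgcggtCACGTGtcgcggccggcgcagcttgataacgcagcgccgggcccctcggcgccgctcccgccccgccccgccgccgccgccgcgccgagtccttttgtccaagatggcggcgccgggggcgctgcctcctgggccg
Rbm4 and Rbm14 held 4 CCAAT boxes each and Rbm4b held 2, and 2 of those in Rbm14 overlap as CCAATTGG. A CCAAT box was present in 16 of the 39 member promoters, against 37.4% of the 32851 promoters of the same length in the RefSeq table. The E-box CACGTG, the sequence bound by the clock factors CLOCK and BMAL1, was present in 5 of 39 member promoters, against 7.15% of all. The D-box TTANGTAA, the CRE TGACGTCA and the ROR element TAGGTCA were each found in 0 of the 39, against 2.32%, 1.79% and 2.61% of all promoters. The ETS site CCGGAAG was present in 6 of 39, against 8.86% of all, and the GC box GGGCGG in 17 of 39, against 35.7%. GC boxes are not marked in the sequences. Each member counts with 1 promoter, while the RefSeq table can hold several for a gene. These matches describe the letters in this window.

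RBM messages differed widely in level, here in FPKM, which is per length. In total RNA exons Rbm39, a splicing factor related to U2AF2, stood highest, from 33.1 to 50.2 FPKM (median 40.3) in Nono-/- livers, against 31.4 to 48.2 FPKM (median 36.4) in wild-type livers. Rbm7, the RNA-binding subunit of the nuclear exosome targeting complex, followed, from 19.0 to 32 FPKM (median 25.3) in Nono-/- livers, against 14.2 to 29.9 FPKM (median 21.8) in wild-type livers. Rbm25, a splicing regulator that works with LUC7L3, ranged from 10.2 to 20.3 FPKM (median 14.6) in Nono-/- livers, against 11.1 to 18.4 FPKM (median 15.1) in wild-type livers. In both genotypes every Rbm39 value lay above every value of Rbm7 and Rbm25 in that genotype. Rbm7 and Rbm25 overlapped. Rbm17, the splicing factor SPF45, ranged from 8.93 to 14.8 FPKM (median 11.1) in Nono-/- livers, against 8.34 to 15.0 FPKM (median 10.7) in wild-type livers. Rbm5, a regulator of splice site pairing, ranged from 8.44 to 11.2 FPKM (median 9.96) in Nono-/- livers, against 9.11 to 11.6 FPKM (median 10.6) in wild-type livers, overlapping Rbm17 in both genotypes. At the other end, 11 members had a mean under 0.5 FPKM in total RNA exons and were not tested there. The 8 members Rbm11, Rbm20, Rbm24, Rbm31y, Rbm44, Rbm46, Rbmx2 and Rbmxl2 were under the filter in exons of both fractions and are not in any count of members tested. Of these, Rbm31y and Rbmxl2 have no intron entry, and the other 6 were under the intron filter too. Rbm31y and Rbmxl2 were listed at 0 in all 48 libraries. Rbm11, Rbm24 and Rbm44 had medians of 0 to 0.00700 FPKM in total RNA. Rbm20, known for titin splicing in heart, had the highest levels among the untested, from 0.194 to 0.537 FPKM (median 0.421) in Nono-/- livers, against 0.223 to 0.575 FPKM (median 0.338) in wild-type livers.

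RBM messages were also placed along the scale from nuclear to total RNA, by the log2 ratio of scaled exon values of the same liver sample. The ratio is relative, since each fraction was scaled on its own. The median of the 32 members tested was -0.24 in Nono-/- livers and -0.40 in wild-type livers, against -1.33 and -1.32 for all 9871 genes in the same genotypes, and 25 of 32 members in Nono-/- livers and 27 of 32 in wild-type livers lay above the median of all genes. Rbm33 had the highest median in Nono-/- livers and the third highest in wild-type livers, below Rbm12b2 and Rbm14. Its ratio was 0.75 to 2.52 (median 1.57) in Nono-/- livers and 0.76 to 1.55 (median 1.01) in wild-type livers. Rbm12b2 ranged from 0.89 to 1.97 (median 1.5) in Nono-/- livers and 0.83 to 1.31 (median 1.10) in wild-type livers. Rbmx ranged from 0.73 to 1.93 (median 1.36) in Nono-/- livers and 0.60 to 1.12 (median 0.79) in wild-type livers. The genotype ranges overlapped for each of them. At the low end of the scale stood Rbm7, -3.39 to -1.93 (median -2.44) in Nono-/- livers and -2.77 to -2.03 (median -2.59) in wild-type livers. Rbm8a, the Y14 subunit of the exon junction complex, ranged from -2.55 to -1.60 (median -2.07) in Nono-/- livers and -2.81 to -1.65 (median -2.08) in wild-type livers. Rbm18 ranged from -2.79 to -0.55 (median -1.65) in Nono-/- livers and -2.14 to -1.18 (median -1.62) in wild-type livers.

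**Figure D1:**
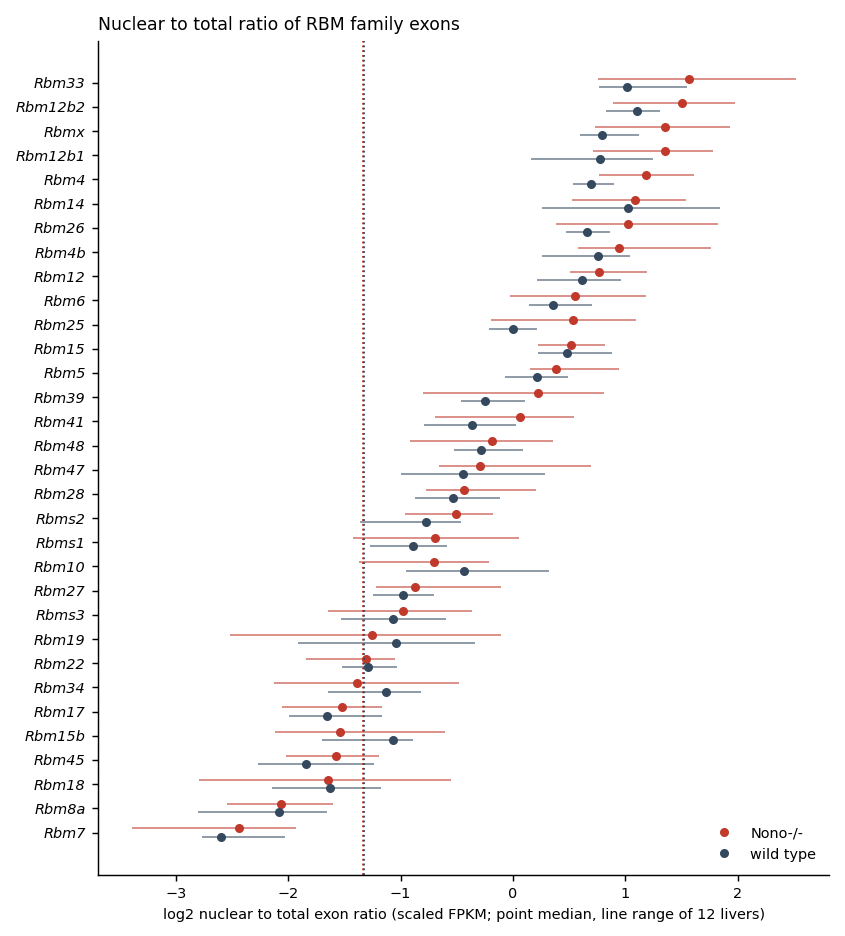
Log2 ratio of nuclear to total RNA exon values (x axis) for the 32 RBM members tested; points are medians and lines the range of 12 livers, Nono-/- above wild type for each gene, and dotted lines the medians of all genes. Rows follow the Nono-/- median, with Rbm33 at the top, at 1.57 in Nono-/- and 1.01 in wild-type livers, and Rbm7 at the bottom with -2.44 and -2.59.

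The 9 members whose nuclear to total exon ratio was called all had a higher ratio in Nono-/- livers. Counting both directions, the share of members called in nuclear exons was near that of all genes. In total RNA exons 1 of the 35 members tested rose (Rbm43) and 4 fell, against 4.45% and 6.48% of all genes. In nuclear exons 8 of 32 rose and 2 fell, against 15.7% and 18.6% of all genes. In total RNA introns 2 of 30 rose and 4 fell, against 6.62% and 9.34%. In nuclear introns 5 of 37 rose and 1 fell, against 7.91% and 10.2%. The nuclear to total exon ratio rose for 9 of 32 members and fell for 0, against 10.4% and 9.19% of all genes. The ratio of total exons to nuclear introns, which sets mature message against unspliced transcript of the same liver, rose for 0 of 34 members and fell for 2, against 3.15% and 4.29%. Over the members tested the median log2 difference was -0.08 in total exons and 0.12 in nuclear exons, against 0.00 over all genes in both. It was -0.01 in total introns against 0.00 over all genes, and 0.08 in nuclear introns against -0.01. For the nuclear to total ratio it was 0.17 against 0.02, and for the total exon to nuclear intron ratio -0.13 against 0.00. Without scaling, nuclear exon calls split into 1 higher and 8 lower among members and 380 higher and 3398 lower among all genes, where with scaling 1648 of all genes were higher and 1956 lower. The same holds for total RNA introns, with 0 higher and 12 lower among members and 102 and 3444 among all genes without scaling, where 624 and 880 of all genes were called with it. For the nuclear to total ratio the unscaled counts were 2 higher and 3 lower among members and 187 and 2386 among all genes, where 1027 and 907 of all genes were called with scaling. In total RNA exons they were 2 higher and 2 lower among members and 762 and 539 among all genes, where 505 and 736 of all genes were called with scaling. Each time point was also fitted as a block, which the labels allow because both genotypes were sampled at each time. The nuclear to total ratio then rose for 4 members and fell for 0, against 563 and 557 of all genes.

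**Figure D2:**
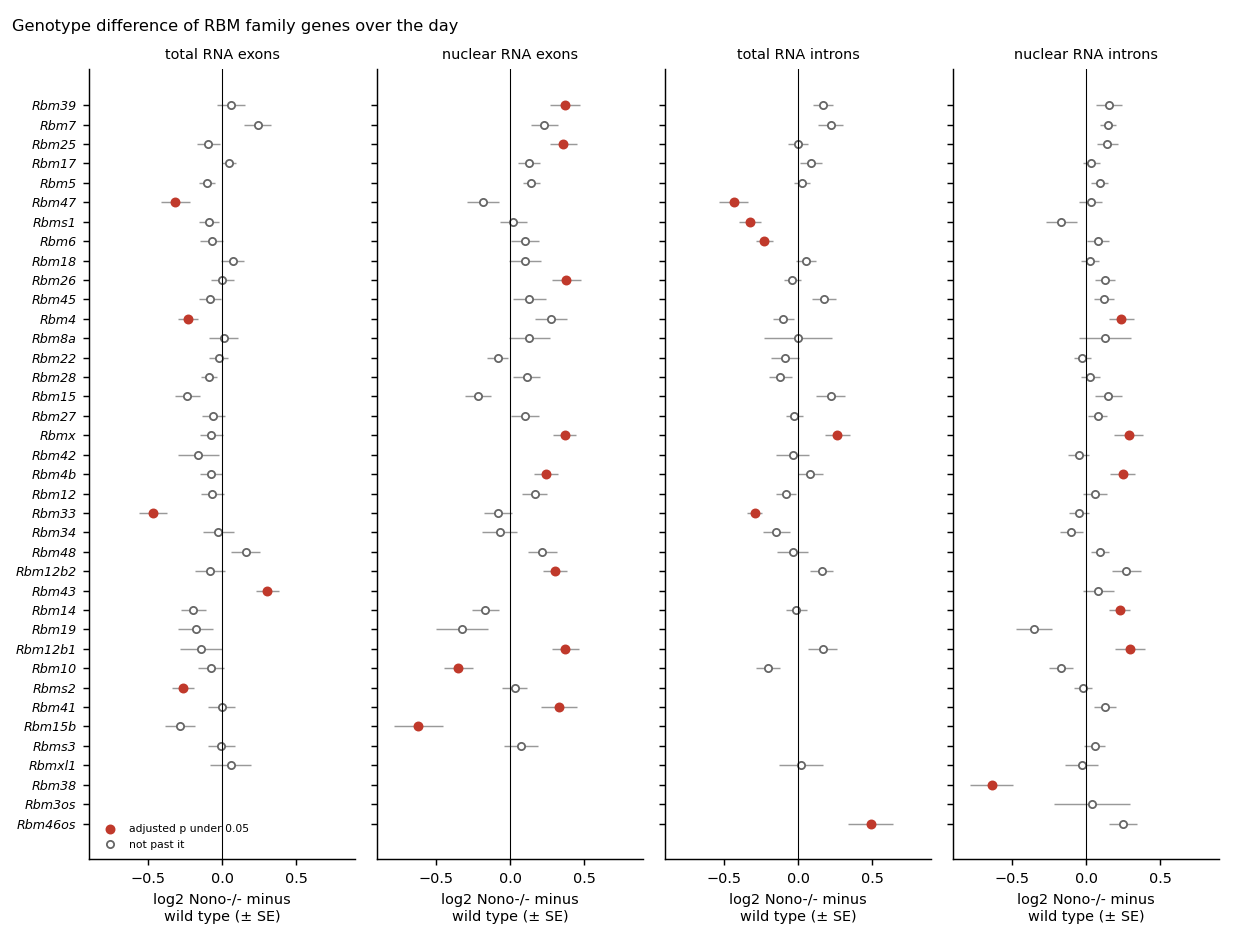
Log2 difference of Nono-/- minus wild type with its SE (x axis) for each RBM member tested (rows, in order of level in total RNA exons), in 4 panels for the exons and introns of each RNA fraction; filled points passed the adjusted threshold of 0.05. Filled points are mostly left of 0 in total RNA exons (4 of 5) and mostly right of 0 in nuclear exons (8 of 10).

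Of the 18 splicing members, 14 were tested in total RNA exons and 14 in nuclear introns. Rbm4 alone of them was called lower in total exons, and it was called higher in nuclear introns, as were Rbm4b and Rbmx. Its neighbour Rbm14 had differences of the same signs in both, with a call in nuclear introns only (below). Total RNA introns of Rbm4 gave no call (log2 difference -0.10 ± 0.07 (SE), adjusted p = 0.346). RBM4 and RBM4B are splicing regulators made from neighbouring genes. Rbm4 exons in total RNA ranged from 3.76 to 5.83 FPKM (median 5.08) in Nono-/- livers, against 4.79 to 6.46 FPKM (median 5.76) in wild-type livers. The ranges overlapped, with 3 Nono-/- livers below all wild-type livers, and Rbm4 fell (log2 difference -0.23 ± 0.07 (SE), adjusted p = 0.0320). Rbm4 introns in nuclear RNA ranged from 7.24 to 10.7 FPKM (median 8.89) in Nono-/- livers, against 6.33 to 10.3 FPKM (median 7.48) in wild-type livers. They rose (log2 difference 0.24 ± 0.08 (SE), adjusted p = 0.0489), with 11 of 12 Nono-/- livers above the wild-type median. Rbm4 exons in nuclear RNA ranged from 9.18 to 12.6 FPKM (median 10.2) in Nono-/- livers, against 9.15 to 11.5 FPKM (median 10.2) in wild-type livers, and their difference did not pass the test (log2 difference 0.27 ± 0.11 (SE), adjusted p = 0.0536). The nuclear to total ratio of Rbm4 was higher in Nono-/- livers at 12 of 12 times (log2 difference 0.50 ± 0.10 (SE), adjusted p = 0.00622), and its total exon to nuclear intron ratio was lower at 12 of 12 (log2 difference -0.47 ± 0.09 (SE), adjusted p = 0.00538). Both ratio calls held when any single time point was left out and without scaling, where the nuclear to total value was 0.27. The intron call was lost with no filter (adjusted p = 0.0621) and with the stricter filter (adjusted p = 0.0524). The call in total exons was lost on leaving out any time point other than ZT2, ZT10, ZT12, ZT20 and ZT22 (adjusted p up to 0.0944) and that in nuclear introns on leaving out any time point other than ZT0 and ZT8 (adjusted p up to 0.138).

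Rbm4b rose in nuclear RNA in both exons and introns. Its nuclear exons ranged from 4.29 to 7.75 FPKM (median 5.53) in Nono-/- livers, against 4.12 to 6.81 FPKM (median 5.52) in wild-type livers, with medians that hardly differed before scaling (log2 difference 0.24 ± 0.08 (SE), adjusted p = 0.0296). Its nuclear introns ranged from 5.74 to 9.05 FPKM (median 7.59) in Nono-/- livers, against 5.62 to 7.92 FPKM (median 6.07) in wild-type livers. There 6 Nono-/- livers lay above all wild-type livers (log2 difference 0.25 ± 0.09 (SE), adjusted p = 0.0496). The Rbm4b ratio of nuclear to total exons also rose (log2 difference 0.32 ± 0.11 (SE), adjusted p = 0.0495), but not with each time point as a block (adjusted p = 0.0735). These 3 calls lay near the threshold. Without scaling those in nuclear exons and the ratio ended (adjusted p = 0.752 and adjusted p = 0.495). The intron call was lost with no filter (adjusted p = 0.0636), the stricter filter (adjusted p = 0.0527) and the larger pseudocount (adjusted p = 0.0502), and the ratio call with no filter (adjusted p = 0.0718). They were lost on leaving out ZT6, ZT10, ZT16 or ZT22 (adjusted p up to 0.0713) for nuclear exons, any time point other than ZT0 and ZT14 (adjusted p up to 0.133) for nuclear introns and any time point other than ZT4 (adjusted p up to 0.134) for the ratio.

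Rbmx, which encodes the nuclear ribonucleoprotein hnRNP G and binds TRA2B, was called higher in Nono-/- livers in 3 of 4 exon and intron readouts, and each of these calls ended without scaling. Its nuclear exons ranged from 7.96 to 11.6 FPKM (median 8.40) in Nono-/- livers, against 6.10 to 12.4 FPKM (median 7.51) in wild-type livers. All 12 Nono-/- livers lay above the wild-type median while the ranges overlapped (log2 difference 0.37 ± 0.08 (SE), adjusted p = 0.00327, higher at 12 of 12 times). Total RNA introns of Rbmx ranged from 0.874 to 1.41 FPKM (median 1.11) in Nono-/- livers, against 0.812 to 1.40 FPKM (median 1.11) in wild-type livers, and rose after scaling (log2 difference 0.26 ± 0.09 (SE), adjusted p = 0.0395). Nuclear introns of Rbmx ranged from 1.95 to 3.45 FPKM (median 2.41) in Nono-/- livers, against 1.5 to 3.70 FPKM (median 1.98) in wild-type livers, with 11 of 12 Nono-/- livers above the wild-type median (log2 difference 0.29 ± 0.10 (SE), adjusted p = 0.0451). Total RNA exons of Rbmx ranged from 3.11 to 4.64 FPKM (median 3.88) in Nono-/- livers, against 3.54 to 4.93 FPKM (median 3.90) in wild-type livers, without a call (log2 difference -0.08 ± 0.08 (SE), adjusted p = 0.585). The nuclear to total ratio of Rbmx rose as well (log2 difference 0.44 ± 0.12 (SE), adjusted p = 0.0213). Without scaling the value was 0.15 in nuclear exons (adjusted p = 0.120), 0.02 in total introns (adjusted p = 0.886), 0.28 in nuclear introns (adjusted p = 0.0623) and 0.21 for the ratio (adjusted p = 0.123). With no filter on low values both intron calls were lost too (adjusted p = 0.0555 in total and adjusted p = 0.0625 in nuclear RNA). The nuclear exon call held with any single time point left out. The other calls were lost on leaving out any time point other than ZT8, ZT10, ZT20 and ZT22 (adjusted p up to 0.102) for total introns, any time point other than ZT0, ZT4, ZT8, ZT20 and ZT22 (adjusted p up to 0.124) for nuclear introns and ZT6, ZT8, ZT12 or ZT18 (adjusted p up to 0.0632) for the ratio.

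Rbm25, Rbm39 and Rbm41 rose in nuclear exons. The test of the difference between nuclear and total RNA passed for Rbm25 and not for Rbm39 or Rbm41. Rbm25 nuclear exons ranged from 14.7 to 20.9 FPKM (median 18.3) in Nono-/- livers, against 13.0 to 21.1 FPKM (median 16.5) in wild-type livers. The wild-type range enclosed that of Nono-/- livers, yet 10 of 12 Nono-/- livers lay above the wild-type median (log2 difference 0.36 ± 0.09 (SE), adjusted p = 0.00723). Its nuclear to total ratio rose (log2 difference 0.45 ± 0.11 (SE), adjusted p = 0.0113), and both calls held when any single time point was left out. Unscaled values were smaller, 0.14 for nuclear exons and 0.22 for the ratio, and still called. Rbm39 nuclear exons ranged from 30.0 to 56.7 FPKM (median 40.9) in Nono-/- livers, against 30.2 to 46.9 FPKM (median 35.2) in wild-type livers, with 2 Nono-/- livers above all wild-type livers (log2 difference 0.37 ± 0.10 (SE), adjusted p = 0.0112). This call held with any single time point left out but not without scaling (adjusted p = 0.0948). The ratio of Rbm39 was higher at 6 of 12 times and did not pass (log2 difference 0.31 ± 0.14 (SE), adjusted p = 0.11). Rbm41, which in human cells binds RNA of the minor spliceosome, ranged in nuclear exons from 0.861 to 1.78 FPKM (median 1.32) in Nono-/- livers, against 0.948 to 1.38 FPKM (median 1.12) in wild-type livers. Here 5 Nono-/- livers exceeded all wild-type livers (log2 difference 0.33 ± 0.12 (SE), adjusted p = 0.0431). The call was lost without scaling (adjusted p = 0.253), with no filter (adjusted p = 0.0693) and on leaving out any time point other than ZT0 and ZT14 (adjusted p up to 0.111). The ratio of Rbm41 did not pass (log2 difference 0.33 ± 0.13 (SE), adjusted p = 0.0782).

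Rbm10, a regulator that promotes exon skipping, was the splicing member that fell in nuclear exons. It ranged from 0.501 to 1.56 FPKM (median 0.903) in Nono-/- livers, against 0.968 to 1.82 FPKM (median 1.28) in wild-type livers. In 6 Nono-/- livers it lay below all wild-type livers, and it was lower at 12 of 12 times (log2 difference -0.35 ± 0.10 (SE), adjusted p = 0.0127). The call held in every alternative that could be run and in every time point left out, with a value of -0.55 without scaling, and the exon values share the uncertainty from Gm12799. Its total RNA exons differed little (log2 difference -0.08 ± 0.09 (SE), adjusted p = 0.643). Rbm6, a relative of RBM5 and RBM10, fell in total RNA introns, where it ranged from 0.246 to 0.612 FPKM (median 0.316) in Nono-/- livers, against 0.356 to 0.615 FPKM (median 0.497) in wild-type livers. There 7 Nono-/- livers lay below all wild-type livers (log2 difference -0.23 ± 0.06 (SE), adjusted p = 0.0114), a count that Rbm4, Rbm26 and Rbm27 reached in that readout without a call. Total exons of Rbm6 gave no call (log2 difference -0.07 ± 0.08 (SE), adjusted p = 0.602). The intron share of total RNA was lower in the same Nono-/- libraries, and with it as a covariate the Rbm6 call was lost (adjusted p = 0.721). Unscaled, the Rbm6 value was -0.46. Rbm5, Rbm17, Rbm22, Rbm42, Rbm48 and Rbmxl1 gave no genotype call in any readout tested. Rbm42 and Rbmxl1 were under the filter in nuclear exons and were not tested there. Nuclear exons of Rbm42 had medians of 0.3035 FPKM in Nono-/- livers and 0.6065 FPKM in wild-type livers as deposited. There 7 Nono-/- livers lay below all wild-type livers. Rbm22, a component of the spliceosome's active site, differed by -0.02 ± 0.06 (adjusted p = 0.861) in total exons on the log2 scale.

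Of the nuclear decay members, Rbm26 changed in nuclei. RBM26 and RBM27 are linked to the poly(A) tail exosome targeting connection. Rbm26 nuclear exons ranged from 8.36 to 11.7 FPKM (median 10.1) in Nono-/- livers, against 7.11 to 11.3 FPKM (median 8.92) in wild-type livers, with 11 of 12 Nono-/- livers above the wild-type median (log2 difference 0.38 ± 0.10 (SE), adjusted p = 0.00795). Total RNA exons of Rbm26 ranged from 4.55 to 6.53 FPKM (median 5.10) in Nono-/- livers, against 4.63 to 6.39 FPKM (median 5.0) in wild-type livers, a log2 difference of 0.00 ± 0.08 (adjusted p = 0.997). Its nuclear to total ratio rose (log2 difference 0.38 ± 0.11 (SE), adjusted p = 0.0253). The ratio call was lost with the time point as a block (adjusted p = 0.0574) and on leaving out ZT2, ZT6, ZT8, ZT12, ZT18 or ZT22 (adjusted p up to 0.0748), whereas the nuclear exon call held with any single time point left out. Neither call held without scaling (adjusted p = 0.0660 for nuclear exons and adjusted p = 0.137 for the ratio). Rbm27 differed by 0.10 ± 0.09 (adjusted p = 0.410) in nuclear exons and Rbm7 by 0.23 ± 0.09 (adjusted p = 0.0544), without a call. Rbm7 in total exons differed by 0.24 ± 0.09 (adjusted p = 0.0868). Rbm8a gave no call in any readout.

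Of the 3 members tied to m6A, Rbm33 and Rbm15b were called, in different readouts, and Rbm15 was not. All 3 had negative log2 differences in exons of both fractions, and differences between members were not tested. Rbm33, which in human cells binds the m6A demethylase ALKBH5, fell in whole liver RNA. Its total RNA exons ranged from 1.82 to 4.94 FPKM (median 2.80) in Nono-/- livers, against 3.16 to 6.09 FPKM (median 3.72) in wild-type livers. In 8 of 12 Nono-/- livers Rbm33 lay below all wild-type livers (log2 difference -0.47 ± 0.10 (SE), adjusted p = 0.00546), and it was lower at 11 of 12 times. Total RNA introns of Rbm33 ranged from 0.369 to 0.772 FPKM (median 0.469) in Nono-/- livers, against 0.626 to 0.902 FPKM (median 0.730) in wild-type livers. Here 10 Nono-/- livers lay below all wild-type livers, and the introns were lower at 12 of 12 times (log2 difference -0.30 ± 0.05 (SE), adjusted p = 0.00150). Nuclear introns of Rbm33 ranged from 2.91 to 3.68 FPKM (median 3.28) in Nono-/- livers, against 2.96 to 3.94 FPKM (median 3.40) in wild-type livers. They gave no call (log2 difference -0.05 ± 0.07 (SE), adjusted p = 0.659), nor did nuclear exons (log2 difference -0.08 ± 0.10 (SE), adjusted p = 0.501). The nuclear to total ratio of Rbm33 rose (log2 difference 0.38 ± 0.13 (SE), adjusted p = 0.0425). That call was lost with the time point as a block (adjusted p = 0.0581), without scaling (adjusted p = 0.219), with no filter (adjusted p = 0.0643) and on leaving out any time point other than ZT0, ZT10 and ZT20 (adjusted p up to 0.1), while both total RNA calls held with any single time point left out and without scaling, where the intron value was -0.53. With the intron share as a covariate the 2 total RNA calls were lost (adjusted p = 0.439 for exons and adjusted p = 0.182 for introns).

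Rbm15b and Rbm15 encode adaptors that bring the m6A writer complex to RNA. Rbm15b nuclear exons ranged from 0.227 to 0.768 FPKM (median 0.371) in Nono-/- livers, against 0.422 to 1.81 FPKM (median 0.697) in wild-type livers. In 7 of 12 Nono-/- livers they lay below all wild-type livers, and 1 Nono-/- liver exceeded the wild-type median (log2 difference -0.62 ± 0.16 (SE), adjusted p = 0.00901). The call held with any single time point left out, with a value of -0.39 with the larger pseudocount. The filter of 0.5 FPKM was set on the mean over both genotypes. The Nono-/- median of Rbm15b lay under it and the wild-type median above it, and with the stricter filter Rbm15b was not tested in nuclear exons. Total RNA exons of Rbm15b ranged from 1.10 to 2.59 FPKM (median 1.32) in Nono-/- livers, against 1.03 to 2.82 FPKM (median 1.78) in wild-type livers, without a call (log2 difference -0.29 ± 0.10 (SE), adjusted p = 0.0693). Rbm15 also gave no call, with log2 differences of -0.24 ± 0.09 (adjusted p = 0.0787) in total exons and -0.22 ± 0.09 (adjusted p = 0.0544) in nuclear exons.

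**Figure D3:**
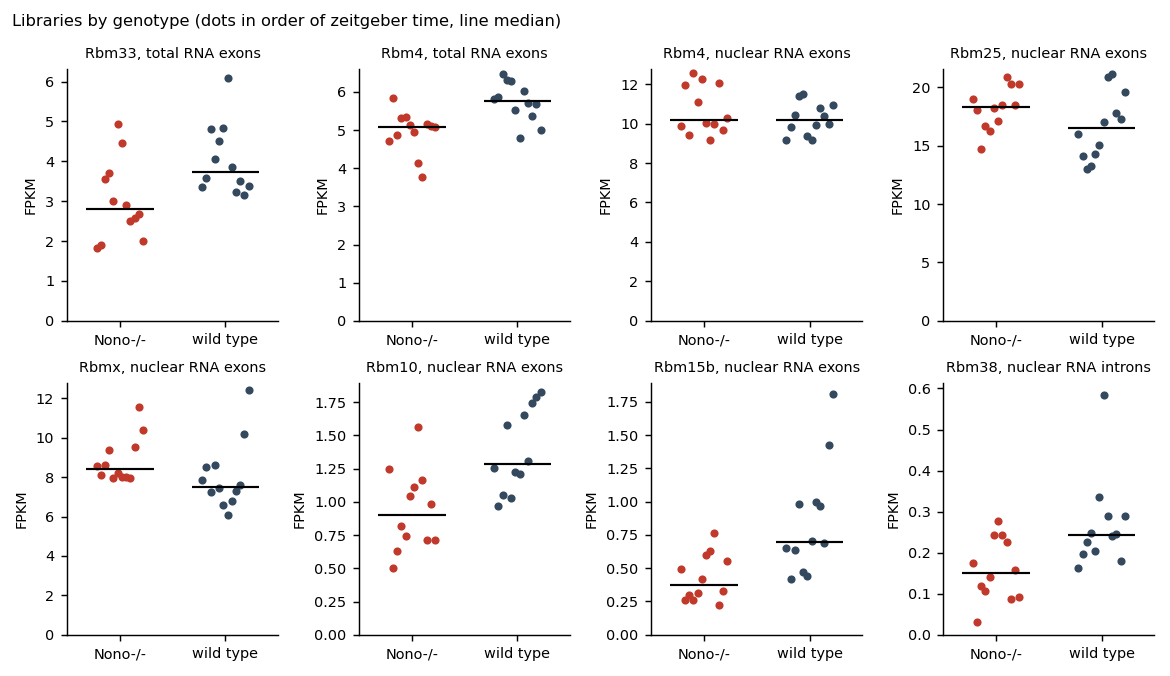
FPKM as deposited in each liver (y axis, 12 dots per genotype in order of zeitgeber time, line at the median), Nono-/- left and wild type right, for 8 readouts of RBM members. Genotype ranges overlap in every panel; 8 of 12 Nono-/- livers lie below all wild-type livers for Rbm33 in total exons and 7 of 12 for Rbm15b in nuclear exons and Rbm38 in nuclear introns.

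Rbm14, the paraspeckle member, rose in nuclear introns, while its exons gave no call in either fraction. Its nuclear introns ranged from 4.78 to 6.60 FPKM (median 5.74) in Nono-/- livers, against 3.43 to 7.02 FPKM (median 5.07) in wild-type livers. The wild-type range enclosed that of Nono-/- livers, of which 9 of 12 lay above the wild-type median (log2 difference 0.22 ± 0.07 (SE), adjusted p = 0.0276). Total RNA exons of Rbm14 ranged from 1.21 to 2.37 FPKM (median 1.80) in Nono-/- livers, against 0.960 to 3.0 FPKM (median 1.96) in wild-type livers, with no call (log2 difference -0.20 ± 0.09 (SE), adjusted p = 0.153). Nuclear exons of Rbm14 ranged from 1.96 to 5.78 FPKM (median 3.56) in Nono-/- livers, against 3.06 to 5.98 FPKM (median 4.60) in wild-type livers. There 4 Nono-/- livers lay below all wild-type livers, with no call (log2 difference -0.17 ± 0.09 (SE), adjusted p = 0.155). The total exon to nuclear intron ratio of Rbm14 was lower at 10 of 12 times (log2 difference -0.42 ± 0.13 (SE), adjusted p = 0.0478). That ratio call was lost with the time point as a block (adjusted p = 0.111), without scaling (adjusted p = 0.0782), with no filter (adjusted p = 0.0649) and on leaving out any time point other than ZT8 and ZT20 (adjusted p up to 0.111), and the intron call on leaving out ZT6, ZT12 or ZT18 (adjusted p up to 0.0797). Part of the Rbm14 signal could belong to the read-through entry Gm21992, which was not tested. The nucleolar members Rbm19, Rbm28 and Rbm34, of which the first 2 act in ribosome assembly, gave no genotype call in any readout tested. Rbm19 was under the filter in total RNA introns. The difference nearest to a call was that of Rbm19 nuclear introns (log2 difference -0.35 ± 0.12 (SE), adjusted p = 0.0503).

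Of the 6 members that act on message stability, translation or editing, 0 were called higher in exons or introns. Of those tested, 2 of 4 fell in total RNA exons and 0 of 4 in nuclear exons. In introns 2 of 2 fell in total RNA and 1 of 5 in nuclear RNA. Over all genes 6.48%, 18.6%, 9.34% and 10.2% fell in these readouts, in the same order. With the intron share as a covariate only the nuclear intron call, that of Rbm38, stayed. Rbm47, which partners the editing enzyme APOBEC1 on the apolipoprotein B message, ranged in total RNA exons from 4.68 to 13.2 FPKM (median 8.56) in Nono-/- livers, against 7.11 to 15.2 FPKM (median 10.2) in wild-type livers. In 3 Nono-/- livers it lay below all wild-type livers (log2 difference -0.32 ± 0.10 (SE), adjusted p = 0.0415). Total RNA introns of Rbm47 ranged from 0.325 to 1.21 FPKM (median 0.513) in Nono-/- livers, against 0.654 to 1.34 FPKM (median 0.865) in wild-type livers. There 8 Nono-/- livers lay below all wild-type livers (log2 difference -0.44 ± 0.10 (SE), adjusted p = 0.00702). Nuclear introns of Rbm47 ranged from 4.67 to 7.63 FPKM (median 5.54) in Nono-/- livers, against 4.31 to 7.30 FPKM (median 5.78) in wild-type livers, with no call (log2 difference 0.03 ± 0.08 (SE), adjusted p = 0.822). The exon call was lost without scaling (adjusted p = 0.0759), with no filter (adjusted p = 0.0650) and on leaving out any time point other than ZT6 and ZT10 (adjusted p up to 0.0989). Unscaled, the intron value was -0.68, and the intron call held with any single time point left out but not with the intron share as a covariate (adjusted p = 0.611).

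Rbms1 and Rbms2 encode related proteins that bind single-stranded nucleic acids and AU-rich messages. Rbms1 fell in total RNA introns, from 0.223 to 0.655 FPKM (median 0.377) in Nono-/- livers, against 0.364 to 0.821 FPKM (median 0.626) in wild-type livers. It was lower at 12 of 12 times (log2 difference -0.33 ± 0.07 (SE), adjusted p = 0.00667), and with the intron share as a covariate that call was lost (adjusted p = 0.499). Unscaled, the value was -0.56. Rbms1 total exons gave no call (log2 difference -0.09 ± 0.07 (SE), adjusted p = 0.428). Rbms2 fell in total RNA exons, from 1.13 to 1.76 FPKM (median 1.55) in Nono-/- livers, against 1.37 to 2.38 FPKM (median 1.70) in wild-type livers. In 3 Nono-/- livers it lay below all wild-type livers (log2 difference -0.27 ± 0.08 (SE), adjusted p = 0.0297). Its nuclear to total ratio rose (log2 difference 0.30 ± 0.10 (SE), adjusted p = 0.0457). With the time point as a block both Rbms2 calls were lost (adjusted p = 0.0514 for exons and adjusted p = 0.0749 for the ratio), and likewise on leaving out any time point other than ZT10, ZT18 and ZT20 (adjusted p up to 0.0798) for exons and any time point other than ZT8 and ZT18 (adjusted p up to 0.103) for the ratio. Scaling was needed for both (adjusted p = 0.0568 and adjusted p = 0.614 without it), and the ratio call was also lost with no filter (adjusted p = 0.0731). Rbms3 gave no call in any readout tested, and it was under the filter in total RNA introns.

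Rbm38, a target of p53 that stabilises messages, fell in nuclear introns. Its nuclear introns ranged from 0.0310 to 0.276 FPKM (median 0.149) in Nono-/- livers, against 0.163 to 0.585 FPKM (median 0.243) in wild-type livers. In 7 of 12 Nono-/- livers they lay below all wild-type livers, and they were lower at 11 of 12 times (log2 difference -0.64 ± 0.15 (SE), adjusted p = 0.00712). The call held in every alternative that could be run and in every time point left out, but its size fell to -0.34 with the larger pseudocount. These levels rest on a median of 31.0 reads per library in Nono-/- livers and 47.5 in wild-type livers. Rbm38 exons were under the filter, from 0 to 0.325 FPKM (median 0.130) in Nono-/- livers, against 0.119 to 0.339 FPKM (median 0.226) in wild-type livers in total RNA.

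Among the remaining members, the neighbours Rbm12b1 and Rbm12b2 rose together in nuclear exons, and reads of the 2 genes may be shared between them. Rbm12b1 nuclear exons ranged from 2.42 to 5.41 FPKM (median 4.12) in Nono-/- livers, against 1.94 to 5.32 FPKM (median 3.60) in wild-type livers. The ranges overlapped almost fully, with 8 of 12 Nono-/- livers above the wild-type median (log2 difference 0.37 ± 0.09 (SE), adjusted p = 0.00642). Rbm12b2 nuclear exons ranged from 4.20 to 7.64 FPKM (median 6.15) in Nono-/- livers, against 4.21 to 7.43 FPKM (median 5.62) in wild-type livers, and after scaling were higher at 12 of 12 times (log2 difference 0.30 ± 0.08 (SE), adjusted p = 0.00982). Both calls held with any single time point left out, and both were lost without scaling, where the values were 0.16 for Rbm12b1 (adjusted p = 0.0939) and 0.09 for Rbm12b2 (adjusted p = 0.168). Nuclear introns of Rbm12b1 ranged from 2.97 to 7.64 FPKM (median 4.89) in Nono-/- livers, against 2.30 to 6.60 FPKM (median 4.41) in wild-type livers, with 4 Nono-/- livers above all wild-type livers (log2 difference 0.30 ± 0.10 (SE), adjusted p = 0.0457). The nuclear to total ratio rose for Rbm12b1 (log2 difference 0.52 ± 0.14 (SE), adjusted p = 0.0197) and for Rbm12b2 (log2 difference 0.39 ± 0.13 (SE), adjusted p = 0.0411). Neither ratio call held without scaling (adjusted p = 0.120 for Rbm12b1 and adjusted p = 0.242 for Rbm12b2). With the time point as a block the Rbm12b2 ratio call was lost (adjusted p = 0.0730), as it was with no filter (adjusted p = 0.0627), which also ended the Rbm12b1 intron call (adjusted p = 0.0626). The Rbm12b1 intron call was lost on leaving out any time point other than ZT0, ZT2 and ZT16 (adjusted p up to 0.133), its ratio call on leaving out ZT8, ZT12 or ZT18 (adjusted p up to 0.0593) and the Rbm12b2 ratio call on leaving out any time point other than ZT0, ZT10 and ZT16 (adjusted p up to 0.109).

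Rbm43 was the member that rose in total RNA exons, where it ranged from 1.68 to 3.38 FPKM (median 2.11) in Nono-/- livers, against 1.08 to 2.29 FPKM (median 1.85) in wild-type livers. In 5 Nono-/- livers it lay above all wild-type livers, and it was higher at 11 of 12 times (log2 difference 0.30 ± 0.08 (SE), adjusted p = 0.0189). The call was lost on leaving out ZT6 or ZT16 (adjusted p up to 0.0598). Its nuclear introns did not pass (log2 difference 0.08 ± 0.11 (SE), adjusted p = 0.626), nor did its total exon to nuclear intron ratio (log2 difference 0.22 ± 0.13 (SE), adjusted p = 0.287). Rbm46os, a noncoding gene whose exon entry lies between Lrat and Fgg on chromosome 3, had intron signal in total RNA, from 0.570 to 1.2 FPKM (median 0.863) in Nono-/- livers, against 0.518 to 0.996 FPKM (median 0.715) in wild-type livers. Its intron entry holds 63679 bases, more than its exon entry spans, so the 2 entries need not cover the same stretch. It rose after scaling (log2 difference 0.49 ± 0.15 (SE), adjusted p = 0.0346) but not without it (adjusted p = 0.0904) or with no filter (adjusted p = 0.0570). The call was lost on leaving out any time point other than ZT2, ZT6, ZT10, ZT20 and ZT22 (adjusted p up to 0.0803), and with the intron share as a covariate the value turned to -0.0029. Lrat, which lies 503 bases from the exon entry of Rbm46os, rose in the same readout (log2 difference 0.47 ± 0.14 (SE), adjusted p = 0.0313). The part of Lrat in the Rbm46os intron signal was not tested. Rbm46os exons were listed at 0 in 8 of 12 Nono-/- and 9 of 12 wild-type total RNA libraries. Rbm3os, Rbm12, Rbm18 and Rbm45 gave no call in any readout tested, and Rbm3os shares its locus with Rbm3 on the other strand.

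Members with a daily rhythm were found in each readout of both genotypes. A 24 h cosine was fitted in each genotype. In total RNA exons 7 of 35 members were rhythmic in Nono-/- livers and 15 in wild-type livers, against 29.6% and 31.6% of all genes. The 7 were rhythmic in both genotypes and comprised Rbm12b2, Rbm17, Rbm25, Rbm33, Rbm43, Rbm47 and Rbms1. In nuclear exons 11 of 32 members were rhythmic in Nono-/- livers and 5 in wild-type livers, against 30.8% and 10.5% of all genes. In total RNA introns 2 of 30 were rhythmic in Nono-/- livers and 5 in wild-type livers, against 14.5% and 11.4%. In nuclear introns 9 of 37 were rhythmic in Nono-/- livers and 10 in wild-type livers, against 31.7% and 20.7%. The test of the difference in rhythm called 0 members and 0 of all genes in each of the 4 readouts, a percentage of 0. At an unadjusted p under 0.05 it marked 5 members and 1207 of all genes in total exons, 1 and 545 in nuclear exons, 1 and 479 in total introns, and 0 and 800 in nuclear introns (limma; no other tool was run). A rhythm called in one genotype and not the other is therefore not shown to differ between them.

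Rbms1 was rhythmic in total exons and in nuclear introns of both genotypes. Its total exons ranged from 5.35 to 11 FPKM (median 7.15) in Nono-/- livers, against 5.29 to 11.2 FPKM (median 7.62) in wild-type livers. The fitted peak-to-trough fold was 1.98-fold with a peak near ZT9.10 in Nono-/- livers (adjusted p = 8.79e-05), against 1.95-fold with a peak near ZT7.56 in wild-type livers (adjusted p = 8.42e-05). High values fell between ZT6 and ZT12 in both genotypes. In nuclear introns Rbms1 ranged from 1.40 to 3.37 FPKM (median 1.85) in Nono-/- livers, against 1.36 to 3.47 FPKM (median 2.48) in wild-type livers. There the fold was 2.09-fold with a peak near ZT5.15 in Nono-/- livers (adjusted p = 0.00364), against 2.16-fold with a peak near ZT5.14 in wild-type livers (adjusted p = 0.00295). The fitted intron peak was earlier than that of the exons in both genotypes, but this phase difference was not tested. The Rbms1 intron entry holds 208551 bases, more than its exon entry spans, so the 2 entries need not cover the same transcript. Rbm12b1 had the widest swing of nuclear introns, 2.43-fold with a peak near ZT21.7 in Nono-/- livers (adjusted p = 0.000648), against 2.47-fold with a peak near ZT21.4 in wild-type livers (adjusted p = 0.000508). Its total exons swung by 1.68-fold with a peak near ZT21.4 in Nono-/- livers (adjusted p = 0.107), against 1.92-fold with a peak near ZT21.7 in wild-type livers (adjusted p = 0.0383). Rbm12b2 introns peaked at a similar time, 1.57-fold with a peak near ZT22.6 in Nono-/- livers (adjusted p = 0.0408), against 1.85-fold with a peak near ZT21.6 in wild-type livers (adjusted p = 0.00809). The introns of both genes were lowest between ZT8 and ZT12.

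Rbm33 and Rbm47 also had wide swings in total exons. Rbm33 swung by 2.05-fold with a peak near ZT10.5 in Nono-/- livers (adjusted p = 0.00173), against 1.58-fold with a peak near ZT9.00 in wild-type livers (adjusted p = 0.0337). Rbm47 swung by 1.98-fold with a peak near ZT14.1 in Nono-/- livers (adjusted p = 0.00295), against 1.58-fold with a peak near ZT17.0 in wild-type livers (adjusted p = 0.0365). Rbm47 was highest at ZT12 in both genotypes. Its nuclear introns swung by 1.21-fold with a peak near ZT11 in Nono-/- livers (adjusted p = 0.334), against 1.49-fold with a peak near ZT10.7 in wild-type livers (adjusted p = 0.0336). Rbm17 had total exons that swung by 1.54-fold with a peak near ZT9.05 in Nono-/- livers (adjusted p = 0.000331), against 1.68-fold with a peak near ZT7.06 in wild-type livers (adjusted p = 3.32e-05). Rbm25 swung by 1.77-fold with a peak near ZT16.3 in Nono-/- livers (adjusted p = 0.00207), against 1.42-fold with a peak near ZT14.4 in wild-type livers (adjusted p = 0.0467). Rbm43 was high in the early light phase, 1.57-fold with a peak near ZT3.70 in Nono-/- livers (adjusted p = 0.0124), against 1.70-fold with a peak near ZT4.17 in wild-type livers (adjusted p = 0.00334). These genes thus peaked at different phases, from the early light phase for Rbm43 to the dark phase for Rbm25.

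**Figure D4:**
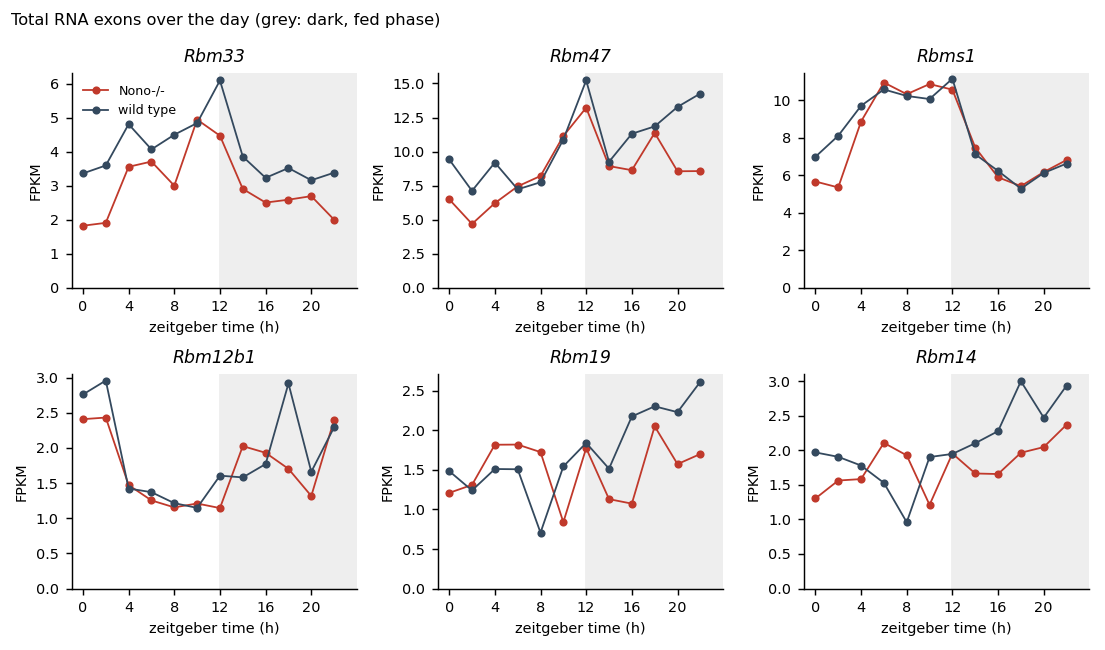
FPKM of total RNA exons (y axis) by zeitgeber time (x axis, h; grey marks darkness and feeding) for the 6 members with the largest peak-to-trough fold among rhythmic members, Nono-/- and wild type, 1 pool per point. Rbm33 runs lower in Nono-/- livers at 11 of 12 times after scaling, and Rbm47 is highest at ZT12 in both genotypes.

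Rbm14 and Rbm19 were rhythmic in total exons of wild-type livers. Rbm14 swung by 1.18-fold with a peak near ZT18.0 in Nono-/- livers (adjusted p = 0.502), against 1.89-fold with a peak near ZT19.2 in wild-type livers (adjusted p = 0.00158). Rbm19 swung by 1.14-fold with a peak near ZT23.9 in Nono-/- livers (adjusted p = 0.778), against 1.92-fold with a peak near ZT18.8 in wild-type livers (adjusted p = 0.0135). The difference in rhythm had an unadjusted p of 0.0340 for Rbm14 and 0.0381 for Rbm19, and an adjusted p of 0.462 for both (limma F test), so it did not pass. In nuclear introns Rbm38 swung by 2.16-fold with a peak near ZT13.1 in Nono-/- livers (adjusted p = 0.0211), against 1.69-fold with a peak near ZT11.9 in wild-type livers (adjusted p = 0.151). Rbm46os introns swung by 1.52-fold with a peak near ZT16.6 in Nono-/- livers (adjusted p = 0.0457), against 1.90-fold with a peak near ZT15.5 in wild-type livers (adjusted p = 0.00451). Rbm19 nuclear introns swung by 1.75-fold with a peak near ZT13.2 in Nono-/- livers (adjusted p = 0.0441), against 1.31-fold with a peak near ZT11.2 in wild-type livers (adjusted p = 0.473). None of these differed between genotypes past the threshold.

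**Figure D5:**
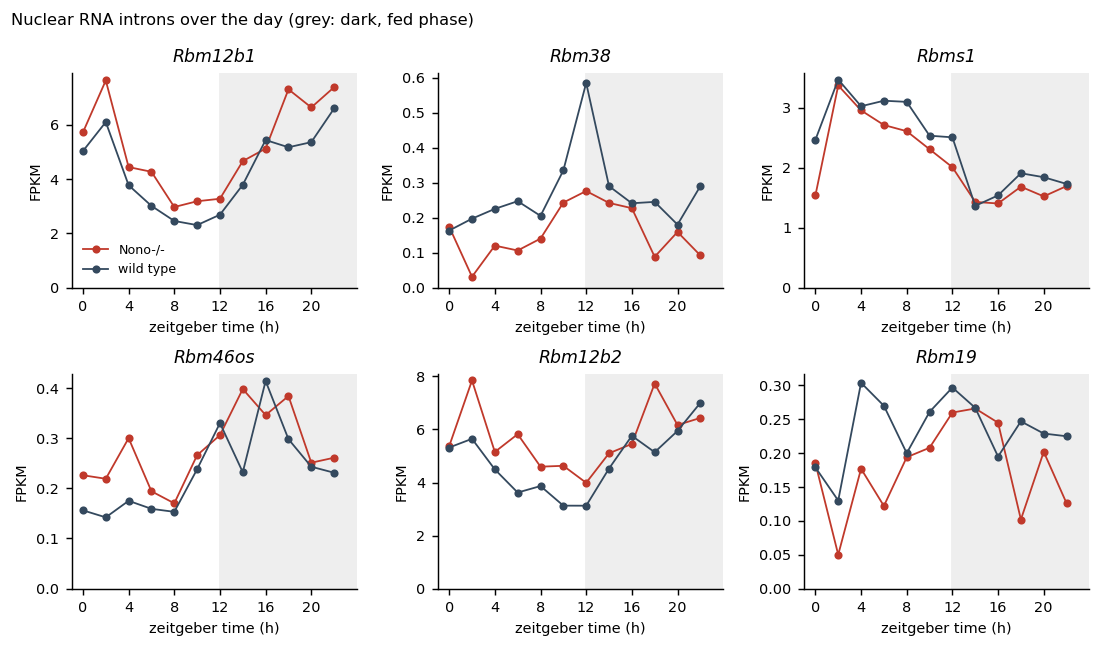
FPKM of nuclear RNA introns (y axis) by zeitgeber time (x axis, h; grey marks darkness and feeding) for the 6 members with the largest peak-to-trough fold among rhythmic members, Nono-/- and wild type, 1 pool per point. Rbm12b1 falls to its lowest values at ZT8 in Nono-/- and ZT10 in wild-type livers, and Rbm38 runs lower in Nono-/- livers.

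Genes that work with RBM proteins were read from a list of 33, covering subunits and partners in splicing, the exon junction, m6A and nuclear decay, all of them in the exon table. In total RNA exons 0 of 33 rose and 6 fell, against 4.45% and 6.48% of all genes, and their median log2 difference was -0.04 against 0.00 over all genes. The 6 were Sf1, A1cf, Casc3, Alkbh5, Zc3h13 and Bud13. Alkbh5, the demethylase that RBM33 binds, was lower (log2 difference -0.27 ± 0.06 (SE), adjusted p = 0.0117). A1cf, a cofactor of APOBEC1 like RBM47, was lower too (log2 difference -0.30 ± 0.09 (SE), adjusted p = 0.0344). Zc3h13, a subunit of the m6A writer complex, also fell (log2 difference -0.24 ± 0.07 (SE), adjusted p = 0.0285). Apobec1 itself gave no call (log2 difference 0.18 ± 0.11 (SE), adjusted p = 0.325), nor did Mettl3, the catalytic subunit of the writer (log2 difference -0.02 ± 0.06 (SE), adjusted p = 0.867). In nuclear exons 4 of 32 rose and 6 fell, against 15.7% and 18.6% of all genes, with a median of 0.13 against 0.00. Luc7l3, the partner of RBM25, rose there (log2 difference 0.33 ± 0.11 (SE), adjusted p = 0.0320), as did Tra2b, the partner of RBMX (log2 difference 0.37 ± 0.12 (SE), adjusted p = 0.0229). Snrnp70, a protein of the U1 particle, fell (log2 difference -0.40 ± 0.10 (SE), adjusted p = 0.00653), and U2af2, to which RBM39 is related, fell too (log2 difference -0.63 ± 0.12 (SE), adjusted p = 0.00195). In total RNA introns 0 of 33 rose and 1 fell (U2af2), against 6.62% and 9.34% of all genes. In nuclear introns 1 of 33 rose and 4 fell, against 7.91% and 10.2%. The nuclear to total ratio rose for 4 and fell for 4 of 32, against 10.4% and 9.19%. The total exon to nuclear intron ratio rose for 1 and fell for 2 of 33, against 3.15% and 4.29%. The alternative fits were not read out for single partner genes, so how far these calls depend on the processing is not known. With the intron share as a covariate 12 of all genes were called higher and 11 lower in total exons. Whether partners and members changed together was not tested.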

How the data were processed

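RNA was measured in 48 mouse liver libraries. Per the labels' protocols, the library kit was TruSeq Stranded with Ribo-Zero Gold depletion, and FastQC 0.11.2, STAR 2.4.0k and the mm10 build are listed per the submitters' processing notes. Per the file headers, the authors computed FPKM with HOMER's analyzeRepeats.pl over exons or introns, with isoforms condensed. The header names no strand option, and no source used here gives the HOMER version, so reads of overlapping genes on opposite strands cannot be told apart. All 96 columns were used. Depth was recovered from FPKM steps (100% whole within 0.1 read), was used to describe libraries, and no count test was run.

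Groups came from the labels. Values were divided by the library's median ratio within a fraction and taken as log2(FPKM + 0.1) for exons or log2(FPKM + 0.05) for introns, which understates changes of low genes. Exon entries averaging 0.5 FPKM or more and intron entries averaging 0.1 FPKM or more were tested with limma 3.58.1 in R 4.3.3, with trend, genotype and a 24 h cosine and sine per genotype. Benjamini-Hochberg adjustment ran over all genes, with a threshold of 0.05. Ratios were differences of log2 values of the same liver sample. P-values measure the spread of pools around a daily curve. The fits were tested on simulated data. Figures used Python 3.11.15 with matplotlib 3.10.9.

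Deviations from group means, which hold the shared rhythm, correlated over 0.1 between genotypes at 12 of 12 times in total exons, total introns and nuclear introns and 11 of 12 in nuclear exons. Alternatives were a fit blocked by time point, no scaling, a pseudocount 5 times larger, no filter, a filter 4 times stricter, the intron share as a covariate and each time point left out. Members, roles, partner genes, markers and alternatives were chosen with earlier results of these data known. Named with values were, per readout, up to 6 called members each way, up to 4 for ratios, the 6 widest rhythms in total exons and nuclear introns, the 5 highest levels and the 3 highest and lowest nuclear ratios. Other members and the partner genes given with values were added after these were seen.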

Additional observations from a re-analysis of the deposited data

Results flagged for a closer look

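For 9 members the effect of genotype differed between nuclear and total RNA exons, by limma's test of the difference itself (Benjamini-Hochberg adjusted over 9871 genes). The nuclear effect minus the total effect on the log2 scale was 0.52 for Rbm12b1, higher in Nono-/- livers at 10 of 12 times, and 0.50 for Rbm4, higher at 12 of 12. It was 0.45 for Rbm25 and 0.44 for Rbmx, each higher at 10 of 12 times. It was 0.39 for Rbm12b2 (9 of 12), 0.38 for Rbm33 (10 of 12), 0.38 for Rbm26 (10 of 12), 0.32 for Rbm4b (8 of 12) and 0.30 for Rbms2 (10 of 12). The intron share of total RNA was 18.5% in Nono-/- livers and 22.1% in wild-type livers, and with the difference in intron share between the libraries as a covariate 0 of these 9 passed the threshold. With the time point as a replicate block 4 of the 9 kept the call, and those of Rbm33, Rbm4b, Rbm26, Rbm12b2 and Rbms2 were lost (adjusted p = 0.0574 to 0.0749). Without scaling 2 of the 9, Rbm25 and Rbm4, kept it.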

How the results depend on the processing

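Of the 38 calls on single members, 37 held with a pseudocount 5 times larger, 31 with each time point as a replicate block, 28 of the 30 that could be run with a filter 4 times stricter, 25 with no filter, 18 with no scaling and 4 with the intron share as a covariate. None reversed except with the intron share, where Rbm46os in total introns came to -0.0029 and the Rbm33 nuclear to total ratio to -0.0079. Counts of members called are given here as higher and lower where both moved. With no scaling they were 2 and 2 in total exons, 1 and 8 in nuclear exons, 0 and 12 in total introns, and 2 and 3 for the nuclear to total ratio, with 1 lower for the total exon to nuclear intron ratio; rhythmic members were 6 in Nono-/- nuclear exons, 0 in Nono-/- total introns and 1 in wild-type total introns. Over all genes, no scaling left 368 lower for the total exon to nuclear intron ratio. Rhythmic were then 2237 of all genes in Nono-/- nuclear exons, 696 in Nono-/- total introns and 590 in wild-type total introns. With the larger pseudocount 2 members and 1221 of all genes fell in nuclear introns. With no filter, 0 members rose in total introns, 1 in nuclear introns and 5 in the nuclear to total ratio. Over all genes 571 of 18975, 978 of 19474 and 738 of 18671 rose there. In nuclear exons 3 members and 1928 of 19660 genes fell. The total exon to nuclear intron ratio fell for 1 member and 366 of 17511 genes. Rhythmic in wild-type total exons were 9 members and 3358 of 19296 genes. With the stricter filter, 0 members and 863 of 5283 genes fell in nuclear exons. In nuclear introns 3 members rose and 0 fell, against 636 and 965 of 8986 genes. The total exon to nuclear intron ratio fell for 1 member and 347 of 7082 genes. Rhythmic in wild-type total exons were 9 members and 2904 of 8106 genes. With the replicate block, 2 members and 625 of all genes rose in total exons. In nuclear introns 2 members and 1483 of all genes fell. The nuclear to total ratio rose for 4 members and 563 of all genes. The total exon to nuclear intron ratio fell for 1 member and 334 of all genes. The 7 single calls lost with the block are named with their members, and the block changed no other of the 38. With the intron share, 0 and 0 were called in total exons, 1 and 1 in nuclear exons and 0 and 0 in total introns, 1 rose in nuclear introns, 0 rose in the nuclear to total ratio and 0 fell in the total exon to nuclear intron ratio. Over all genes that covariate left 12 higher and 11 lower in total exons (505 and 736 without it), 515 and 547 in nuclear exons (1648 and 1956), 14 and 11 in total introns (624 and 880), 512 and 492 in nuclear introns (953 and 1224), 5 and 0 for the nuclear to total ratio (1027 and 907) and 0 and 7 for the total exon to nuclear intron ratio (330 and 450). The causes were not tested. Leaving out each time point in turn gave 0 to 1 higher and 1 to 4 lower in total exons, 6 to 11 and 2 to 3 in nuclear exons, 0 to 2 and 4 to 4 in total introns, 0 to 6 and 1 to 2 in nuclear introns, 2 to 10 and 0 to 1 for the nuclear to total ratio, and 0 to 0 and 1 to 3 for the total exon to nuclear intron ratio. Over all genes this gave 292 to 510 higher and 414 to 762 lower in total exons. The ranges were 943 to 2124 and 1171 to 2420 in nuclear exons. They were 292 to 788 and 492 to 1043 in total introns, and 512 to 1210 and 619 to 1708 in nuclear introns. For the nuclear to total ratio they were 328 to 1681 and 275 to 1753. For the total exon to nuclear intron ratio they were 101 to 661 and 163 to 578. Each time point is 1 pool a genotype, so a difference at a single time has no replicate. Low members rest on few reads, and the 8 members under every filter were not tested.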
